A study of Mus musculus with 32 samples.

Results

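The cells described here are the 106 cells of a day 6 reprogramming culture, grown without ascorbic acid, in which at least 1 unique molecular identifier (UMI, a tag that counts one captured RNA molecule) of Nanog was read. They came from a single-cell RNA-seq study of mouse embryonic fibroblasts (MEFs) driven towards pluripotency with doxycycline, in which 32 libraries formed 16 groups of 2 libraries, named A and B. A cell was taken when it belonged to either S2 day 6 library, was absent from the depositors' list of feeder cells, held 1000 or more UMIs and had at least 1 Nanog UMI. Of 439 cells that met the first conditions, 106 had Nanog and 333 had none, out of 7599 cells kept by the same conditions in all libraries and 8334 barcodes in all.

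Nanog is a homeodomain transcription factor of the inner cell mass and of embryonic stem cells. In reprogramming, fibroblasts first lose their mesenchymal programme and take on epithelial adhesion genes, and the pluripotency genes come on later and in stages. Ascorbic acid is a cofactor that keeps the iron of 2-oxoglutarate-dependent enzymes reduced, among them the TET enzymes that oxidise methylated DNA and the jumonji histone demethylases.

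All the day 6 cultures compared here received doxycycline at 2 ug/mL and were plated on irradiated MEFs. The S2 culture received SGC0946, a small-molecule inhibitor of the histone H3 lysine 79 methyltransferase DOT1L, at 5 uM, together with 2i, the pair of inhibitors CHIR-99021 (of GSK3) and PD-0325901 (of MEK), added 12 h later. The A2S culture received the same and ascorbic acid at 50 ug/mL. AS cultures received ascorbic acid and SGC0946 without 2i, and A2 cultures ascorbic acid and 2i without SGC0946. Starting MEFs and embryonic stem cells (ESCs) were profiled as such. The labels do not give the genotype of the fibroblasts or say whether libraries A and B were separate cultures, and the p-values therefore reflect only library-to-library variation, which may be technical. How reads of the induced factors were counted is not given in the sources used here, so UMIs of Pou5f1, Sox2 and Klf4 cannot be assigned to the endogenous genes.

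The promoters of 4 genes are shown first, because they belong to genes on which the account turns. Each is the RefSeq sequence (GRCm38.p6, the mm10 build) of up to 250 bases directly upstream of the gene on the plus strand, 5′ to 3′, with CG dinucleotides, the sites of DNA methylation, in capitals. Nanog chose the cells and Epcam marks their epithelial state. Pou5f1 had almost no UMIs in the cells, and Tex19.1, a germline gene known to be silenced by promoter methylation, had none.
Nanog, chr6:122707239-122707488: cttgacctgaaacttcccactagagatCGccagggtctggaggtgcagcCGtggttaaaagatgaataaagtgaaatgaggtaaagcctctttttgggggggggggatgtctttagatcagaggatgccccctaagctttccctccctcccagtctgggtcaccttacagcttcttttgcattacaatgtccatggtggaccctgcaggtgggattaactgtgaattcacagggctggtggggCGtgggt
Epcam, chr17:87635729-87635978: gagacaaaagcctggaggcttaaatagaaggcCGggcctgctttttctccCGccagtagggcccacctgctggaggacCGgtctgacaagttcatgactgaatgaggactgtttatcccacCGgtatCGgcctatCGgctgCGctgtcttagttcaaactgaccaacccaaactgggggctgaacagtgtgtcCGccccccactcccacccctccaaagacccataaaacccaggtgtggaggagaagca
Pou5f1, chr17:35505782-35506017: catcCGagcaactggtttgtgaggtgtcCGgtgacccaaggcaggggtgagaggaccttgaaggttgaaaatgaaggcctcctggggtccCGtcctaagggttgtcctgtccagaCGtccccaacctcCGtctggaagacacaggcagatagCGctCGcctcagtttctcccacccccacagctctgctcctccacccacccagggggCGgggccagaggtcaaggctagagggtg
Tex19.1, chr11:121145893-121146142: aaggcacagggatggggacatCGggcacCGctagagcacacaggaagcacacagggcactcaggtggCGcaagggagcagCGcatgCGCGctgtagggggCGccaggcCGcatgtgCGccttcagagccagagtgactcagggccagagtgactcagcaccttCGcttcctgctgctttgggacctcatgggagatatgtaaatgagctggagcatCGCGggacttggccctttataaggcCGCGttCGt

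The Nanog window holds 3 CG sites, Epcam and Pou5f1 hold 8 each and Tex19.1 holds 15, against a median of 6 over 32851 windows of 250 bases. Windows with fewer CG sites make up 29.0% of all for Nanog, 57.0% for Epcam and Pou5f1, and 72.7% for Tex19.1. A composite of the Sox and Oct motifs, CATTGTNATGCAAA, was searched on both strands. It was found in 2 of the 32851 windows (0.00609%), both of Nanog, on the minus strand and beginning 75 bases before the start. None of the other 3 printed promoters holds these letters. Apart from N the match was exact, so other forms of the composite and sites outside the windows were not counted.

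Nanog-positive cells made up 25.8% of S2 day 6 cells in library A (61 of 236, exact 95% Clopper-Pearson interval 20.4% to 31.9%) and 22.2% in library B (45 of 203, 16.7% to 28.5%). The shares were 48.7% and 49.6% in A2S, 8.63% and 13.7% in AS and 3.56% and 4.56% in A2 at day 6. At day 4 of S2 they were 5.21% and 3.55%, and in ESCs 82.6% and 88.4%. The 2 S2 day 6 libraries therefore lay below both A2S libraries and above both AS and both A2 libraries. Since a deep cell shows a Nanog UMI more readily, each cell was also thinned at random to 3000 UMIs, which left 9.59% and 11.2% in S2, 38.0% and 41.2% in A2S, and 59.7% and 63.6% in ESCs. In MEFs, which should lack Nanog, 1 of 298 and 7 of 431 cells had a Nanog UMI, 1 each, at a median depth in those cells of 38389 and 36216 UMIs. Intervals cover counting error only.

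**Figure D1:**
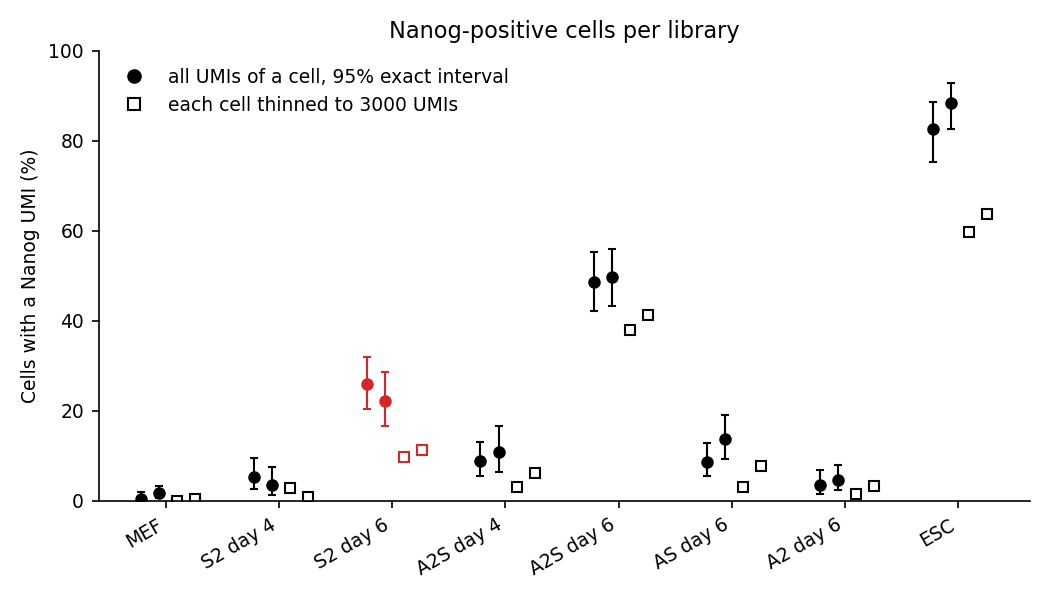
Percent of kept cells with 1 or more Nanog UMIs (vertical axis) in each library of the groups on the horizontal axis; filled points use all UMIs with exact 95% binomial intervals, and open squares use cells thinned to 3000 UMIs. The S2 day 6 libraries (red) sit at 25.8% and 22.2%, below the A2S day 6 libraries and above the AS and A2 day 6 libraries.

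Among the 106 cells, 35 had a single Nanog UMI (19 in library A and 16 in B), 52 had 2 to 4, and 19 had 5 or more (10 and 9). The largest counts were 12 in A and 15 in B. The median depth of the Nanog-positive cells was 14019 UMIs in A and 10945 in B, against 12251 and 11540 in cells with 0 Nanog UMIs, so neither set was deeper in both libraries. The shallowest Nanog-positive cells had 1511, 2373 and 2585 UMIs. The deepest cells left out for depth had 891, 975 and 987 UMIs, all with 0 Nanog UMIs. Feeder-listed barcodes numbered 5 and 14 in the S2 libraries, none with Nanog. No barcode was shared between the S2 libraries, and 2 of the 106 barcodes also occurred in libraries of other groups. Scrublet, a doublet caller, marked 3 of 61 and 0 of 45 Nanog-positive cells, and 17 of 175 and 15 of 158 cells with 0 Nanog.

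Epcam and Sall4 were given together with Nanog as markers of these cells, so their levels describe the cells and do not test the name. Epcam, an epithelial adhesion molecule (chr17:87635979-87651129, plus strand, mm10), had a UMI in 93 of 106 Nanog-positive cells and in 138 of 333 cells without Nanog. Sall4, a zinc-finger transcription factor of early embryonic cells (chr2:168748332-168767943, minus strand), had a UMI in 44 of 106 against 33 of 333. Both together were seen in 41 of 106 cells (38.7%) and 21 of 333 (6.31%). In ESCs with Nanog the share with both was 91.1%, and in A2S cells with Nanog 56.3% (134 of 238). Among MEFs without Nanog, 3 of 721 had an Epcam UMI and none had a Sall4 UMI, which allows a share of cells with a UMI of up to 0.416% and sets no limit on cells expressing the gene below detection. At 3000 UMIs per cell, Epcam was read in 59.2% of 103 Nanog-positive cells and 19.6% of 312 others, and Sall4 in 19.4% and 2.56%. Most of the cells were thus Epcam-positive, while Sall4 was read in a minority.

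A caution on 1 group comes before the comparisons. In the A2S libraries of days 4 and 6 a few genes stood apart, in cells with and without Nanog. Eif4a1, a translation initiation helicase, was at 25.7 and 26.0 CPM (the UMIs of a gene per 1000000 UMIs summed over the cells of a class in a library) in A2S Nanog-positive cells. It was at 464 and 470 CPM in S2, 467 and 480 in AS, and 1038 and 1026 in ESCs. Acp1, a phosphatase, was at 20.1 and 10.4 in A2S and 123 and 124 in S2. In A2S cells without Nanog, Eif4a1 was at 25.5 and 22.4 CPM and Acp1 at 14.7 and 14.4. The part of this difference between libraries in the other S2 to A2S differences was not tested.

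Cells with Nanog were first set against cells of the same libraries with 0 Nanog UMIs. Called higher were 9 of 16 tested core pluripotency genes, 11 of 23 epithelial genes and 28 of 30 genes of the G2/M phases of the cell cycle, and called lower were 19 of 27 fibroblast matrix genes. Cldn6, a claudin of tight junctions, rose from 9.01 and 6.21 CPM in cells without Nanog to 57.4 and 66.0 CPM in cells with it (libraries A and B). Sall4 rose from 9.91 and 10.9 to 38.6 and 94.1 CPM, and Epcam from 107 and 101 to 280 and 422 CPM. For each of the 3 genes both Nanog-positive libraries lay above both others, although library B was well above library A for Sall4.

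The UMIs of each class were summed per library, and edgeR's quasi-likelihood test was run with the library as a block and with Nanog left out. Genes with a Benjamini-Hochberg adjusted p under 0.05 are called. Of 11099 genes tested, 747 were higher in Nanog-positive cells (6.73%) and 1067 lower (9.61%). DESeq2 called 543 in all, and thinning to 3000 UMIs left 537 of 7857 tested. Without library A 879 were called, and without library B 979.

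Of the genes at 50 CPM or more, the one with the largest rise was Cldn6, with a log2 fold change of 2.93 ± 0.34 (SE). Rbpms2, an RNA-binding protein, followed at 2.81, Sall4 at 2.53 ± 0.31 (adjusted p = 9.4e-09), and Slc2a3, a glucose transporter of early embryos, at 2.40 ± 0.27. Slc2a3 went from 182 and 158 CPM to 802 and 1079 CPM. Igf2bp1 (an RNA-binding protein, 2.16), Sfn (2.11), Apela (a secreted peptide of early embryos and embryonic stem cells, 2.07) and Tfap2c (a transcription factor, 1.93) completed the 8. Epcam rose by 1.67 ± 0.13. Without library A the call of Sfn did not stand (adjusted p = 0.2).

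The largest falls began with 3 genes that had few UMIs left. Il1rn, an interleukin 1 antagonist, had 1 UMI in the Nanog-positive cells and 215 in the others, Serpina3n had 3 and 309, and Fmod, a matrix proteoglycan, 3 and 281. The Il1rn call was lost with DESeq2's size factors in edgeR (adjusted p = 0.058) and in cells of 5000 UMIs or more (0.053), and that of Fmod without the library term (0.0851). Tgfbi, a secreted matrix protein, fell from 128 and 107 CPM to 8.19 and 6.00 (log2 fold change -4.06). Col1a1, the main chain of type I collagen, went from 307 and 162 to 24.6 and 16.0 CPM (log2 fold change -3.60 ± 0.64, adjusted p = 0.046). Its call did not stand without library A (adjusted p = 0.291) or without library B (0.166). Crym (-3.41), Fbln5 (-3.40) and Igfbp7 (-3.36) also fell, and the calls of Crym and Fbln5 were lost when called doublets were left out (adjusted p = 0.0583 and 0.0734). Each of these 8 genes was lower in Nanog-positive cells in both libraries.

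**Figure D2:**
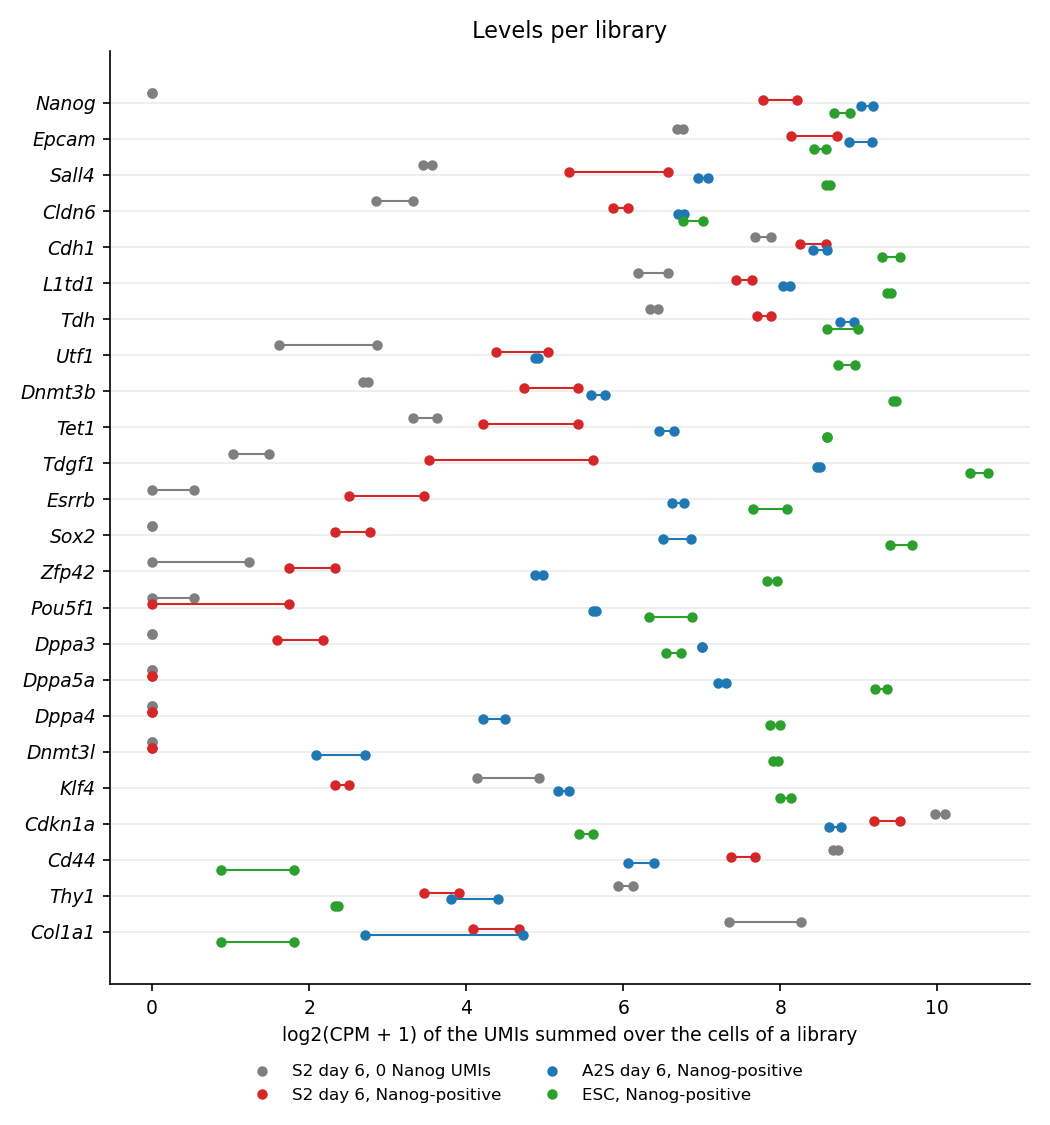
Level of 24 genes (vertical axis) as log2(CPM + 1) on the horizontal axis, with a point for each library and a line joining the libraries of a group, in S2 day 6 cells without Nanog (grey) and in Nanog-positive cells of S2 day 6 (red), A2S day 6 (blue) and ESCs (green). Epcam, Sall4 and Cldn6 lie higher in S2 cells with Nanog than in those without, while Dppa5a, Dppa4 and Dnmt3l are at 0 in both S2 classes.

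Grouped by role, the core pluripotency list (17 genes, Nanog not counted in tests) had 16 genes tested, of which 9 rose, none fell and 7 were not called. The median log2 fold change was 1.79 (1.70 with genes at 0 UMIs put at their bound), against -0.01 over all genes tested. Lin28a, an RNA-binding regulator of let-7, rose from 5 UMIs in the cells without Nanog to 20 in those with it, a log2 fold change of 3.46 ± 0.90, which was not called without library A (adjusted p = 0.294). Utf1, a chromatin-associated factor of pluripotent cells, rose by 2.45, from 6.31 and 2.07 to 19.9 and 32.0 CPM, and was not called without library B (adjusted p = 0.0787). L1td1 rose by 1.11. Sox2 had 7 UMIs against 0, at least 7.15-fold higher over the group, and its call was lost without library A (adjusted p = 0.128). Pou5f1 had 2 UMIs in all 106 cells and 1 in the 333, and was not called. Tdgf1, a Nodal co-receptor, was at 10.5 and 48.0 CPM against 1.80 and 1.04 and missed the threshold (adjusted p = 0.063).

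The naive-state list, genes of the ground state kept by 2i, had 19 of 20 genes tested, with 5 higher, 2 lower and 12 not called. Its median was 0.99, or 0.17 with genes at 0 put at their bound. Esrrb, an orphan nuclear receptor, had 9 UMIs against 1, and Nr5a2, another, 11 against 1; the ratio for Esrrb was 27.6 (counting interval 3.82 to 1209). Neither was called without library B (adjusted p = 0.155 and 0.187), and Nr5a2 not without library A (0.0581). Tfcp2l1 rose by 1.66, from 36 UMIs in the larger set to 37 in the smaller, and was not called without library B (adjusted p = 0.288). Klf4 fell by 2.30 on the log2 scale, to 4.68 and 4.00 CPM from 16.7 and 29.5, and was not called without library B (adjusted p = 0.0891). Tdh, the threonine dehydrogenase used by mouse pluripotent cells, rose by 1.38, from 86.1 and 79.8 to 235 and 208 CPM. Dppa5a had no UMI in either class. With DESeq2, Klf4 (adjusted p = 0.115) and Sox2 (0.216) were not called, nor were Esrrb (0.467), Klf4 (0.179) and Sox2 (0.446) after thinning.

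Of 23 epithelial genes tested, 11 rose, 1 fell and 11 were not called, with a median of 0.89. Cldn4 rose by 2.34 and Cldn7 by 2.10 (not called after thinning, adjusted p = 0.254), while Ehf, an epithelial transcription factor, fell by 1.76. Cdh1, encoding E-cadherin, rose by 0.60, from 236 and 205 to 382 and 304 CPM. The fibroblast matrix list had 19 of 27 genes lower and none higher (median -2.35), and mesenchymal regulators 7 of 18 lower and none higher (median -2.20, or -1.45 with bounds). Loxl1, a collagen crosslinker, had 1 UMI against 95, Prrx1 fell by 2.21 and Thy1, a surface marker of fibroblasts, by 2.37, a call lost without called doublets (adjusted p = 0.0935). Twist1, a mesenchymal transcription factor, fell to 16.4 and 28.0 CPM from 77.5 and 117. Thy1 was read in 1 of 103 Nanog-positive cells and 33 of 312 others at 3000 UMIs, against 62.0% of MEFs without Nanog. Of 8 fibroblast markers, 4 or more were present in 9 of the 106 cells (8.49%), in 137 of the 333 (41.1%) and in 98.2% of MEFs.

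Proliferation genes were higher in the same cells. The G2/M list had 28 of 30 genes called higher (median 1.06) and the S phase list 17 of 30 (median 0.62). Neither had a gene called lower. Cenpf, a kinetochore protein, rose by 1.48 and Bub1, a checkpoint kinase, by 1.45, and Uhrf1, which recruits the maintenance DNA methyltransferase, rose by 1.03. Across the other settings tried, including each library left out, the G2/M count ran from 18 to 29 and the S phase count from 6 to 19 (9 without library A). On the p53 and senescence list 7 of 23 fell and 1 rose (median -0.39), with 4 lower without library A and 3 without library B. Cdkn1a, the p21 inhibitor of cyclin-dependent kinases, fell by 0.71, from 1099 and 999 to 736 and 584 CPM.

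Of 9 DNA methylation and demethylation genes tested, 3 rose, 1 fell and 5 were not called (median 0.34). Dnmt3b, a de novo DNA methyltransferase, rose by 2.51, Tet1, an oxidase of methylated cytosine, by 1.42, and Uhrf1 as given above, while Tet3, another such oxidase, fell by 0.75 (adjusted p = 0.034). Dnmt3b was not called after thinning (adjusted p = 0.293) and Tet1 not without library B (0.38), after thinning (0.711) or with DESeq2 (0.0769). Tet3 was not called without library A (0.0679) or B (0.504), after thinning (0.802) or with DESeq2 (0.37). Of 24 genes on the list of jumonji genes and other 2-oxoglutarate enzymes, 4 fell and 1 rose. P4ha3, P4ha1 and P4ha2, subunits of collagen prolyl hydroxylase, fell by 2.83, 1.37 and 1.03, and Jarid2, a partner of Polycomb repressive complex 2, rose by 0.90 (not called after thinning, adjusted p = 0.474). P4ha1 and P4ha2 were not called without library A (adjusted p = 0.383 and 0.537). On the imprinted list 7 of 18 fell and 3 rose. Meg3, a maternally expressed long RNA, fell by 0.99 and was not called with 2 or more Nanog UMIs required (adjusted p = 0.156). Of the 30 genes of the germline and methylation-sensitive list, 25 had 0 UMIs in the Nanog-positive cells. The 5 that were tested were not called.

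Summed levels of markers of 5 other cell types were lower in the cells with Nanog than in those without, in each library. Macrophage and blood markers summed to 52.7 and 52.0 CPM in Nanog-positive cells and 96.4 and 76.6 CPM in the others, with Ptprc, which defines blood cells, at 0 UMIs in both. Endothelial markers summed to 111 and 104 against 149 and 168 CPM, with Cdh5 at 0 in both. Neural markers summed to 144 and 130 against 157 and 142 CPM, and trophoblast and extraembryonic endoderm markers to 380 and 408 against 598 and 513 CPM. Epidermal markers summed to 699 and 522 against 746 and 796 CPM. Of the tested genes, 1 of 2 macrophage, 2 of 5 endothelial, 1 of 6 neural, 2 of 8 trophoblast and 2 of 6 epidermal genes fell, and 1 each of the endothelial, trophoblast and epidermal lists rose. Of the remaining lists, interferon response had 5 lower and 1 higher of 21, ERK targets 3 lower of 15 and DOT1L and partners 3 lower of 12. Glycolysis had 5 higher and 1 lower of 22, and the nuclear-encoded respiratory chain 2 higher of 39. Over all genes tested 6.73% were higher and 9.61% lower. The respiratory chain count is near that share, and several lists above rest on 1 or 2 called genes.

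**Figure D3:**
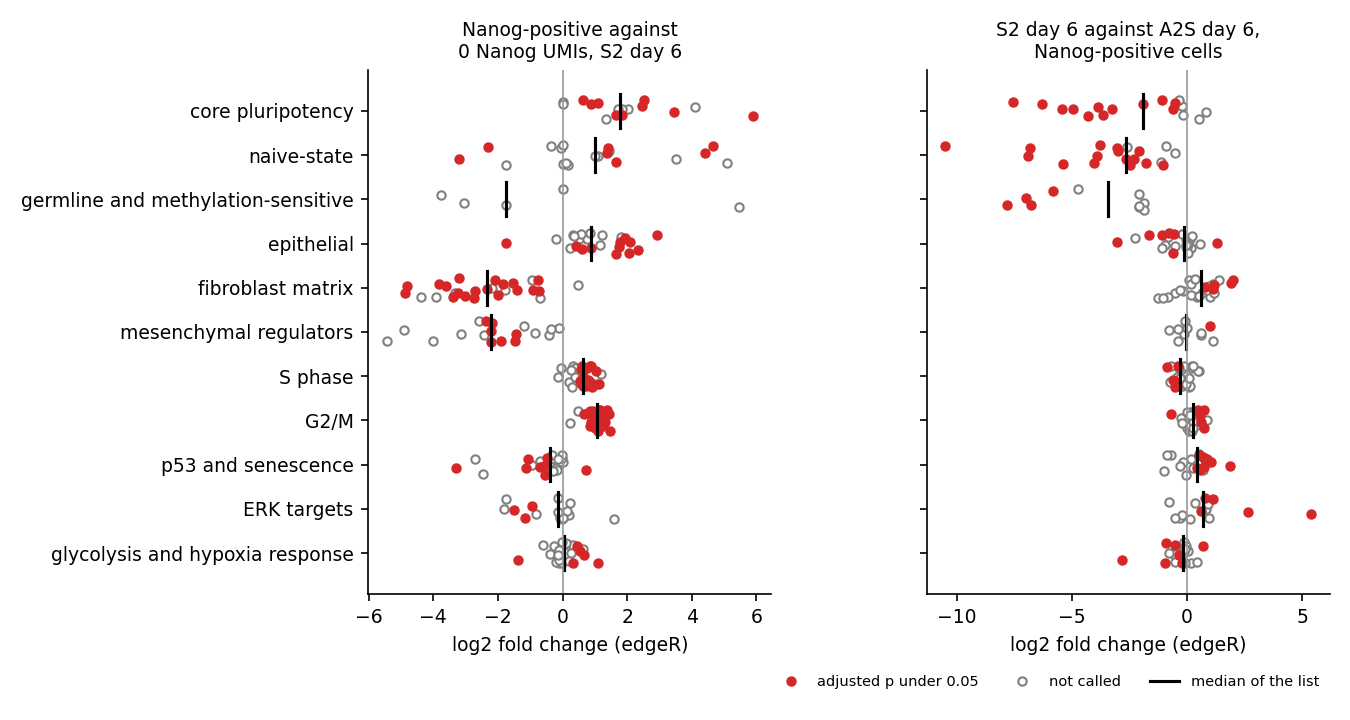
Log2 fold changes of every tested gene (horizontal axis) on 11 gene lists, for S2 day 6 cells with against without Nanog (left) and for Nanog-positive cells of S2 against A2S at day 6 (right). Filled points passed an adjusted p under 0.05 in edgeR's test and bars are medians; the core pluripotency median is 1.79 on the left and -1.90 on the right.

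Some levels rose or fell with the number of Nanog UMIs and others did not. Over S2 cells with 0, 1, 2 to 4 and 5 or more Nanog UMIs, Sall4 stood at 10.4, 35.3, 53 and 101 CPM in the pooled libraries; in library A alone it was not ordered, at 9.91, 38.8, 27.9 and 62.6 CPM. Cldn6 ran 7.7, 20.2, 57.7 and 117 CPM, and Slc2a3 171, 363, 834 and 1726 CPM. Epcam was at 105, 297, 329 and 383 CPM, flat past the first Nanog UMI in library A (285, 276 and 282) and climbing in B (315, 436 and 540). Cd44, a hyaluronan receptor of fibroblasts, ran the other way, at 415, 282, 167 and 117 CPM. In the pooled libraries Cdh1 (221, 340, 363 and 348 CPM) and Cdkn1a (1052, 653, 711 and 652) differed between 0 and 1 Nanog UMI and were not ordered after that. In library B alone Cdkn1a fell at each step (999, 619, 597 and 516). Tdh was at 83.1, 156, 257 and 247 CPM in the pooled libraries, which hides a difference between them. It ran 86.1, 198, 281 and 177 CPM in library A and climbed at each step in B (79.8, 97.0, 209 and 355). Thy1 ran 64.1, 5.04, 12.5 and 22.2 CPM. These are descriptions of ordered sets of 333, 35, 52 and 19 cells, with a median depth of 10987 UMIs at 1 Nanog UMI and 15351 at 5 or more. Dppa5a was at 0 in every set.

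The cells were next set against the 238 Nanog-positive cells of A2S day 6, a culture that differed by ascorbic acid alone in the labels. Of the A2S cells, 123 had 5 or more Nanog UMIs, against 19 of the 106 S2 cells. The contrast therefore mixes Nanog level with culture. Lower in S2 were 15 of 19 tested genes of the naive-state list, 12 of 17 of core pluripotency and 4 of 10 of the germline and methylation-sensitive list, some at 0 UMIs and others at a reduced level. Dppa5a (chr9:78367052-78368177, minus strand), an RNA-binding protein of pluripotent cells, was at 147 and 157 CPM in A2S and at 0 of 1354160 UMIs in the S2 cells, at least 68.7-fold lower over the group. Esrrb was at 4.68 and 10.01 CPM in S2 and 108 and 97.4 in A2S, and Sox2 at 5.85 and 4.00 against 90.1 and 116 CPM. Pou5f1, encoding OCT4 (chr17:35506018-35510772, plus strand), had 2 UMIs in S2 (2.34 and 0 CPM) and 145 in A2S (47.8 and 49.4 CPM). No S2 library reached any A2S library for these 4 genes.

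In edgeR's quasi-likelihood test over Nanog-positive cells, 520 of 10324 genes were higher in S2 than in A2S (5.04%) and 626 lower (6.06%). The total of 1146 fell to 425 without S2 library A, 645 and 622 without either A2S library, 362 with DESeq2 and 255 of 6488 tested after thinning. The largest falls among genes at 50 CPM or more began with Dppa5a. Fam25c followed (2 UMIs against 290) and then Mylpf, a myosin light chain (3 against 424). Dppa3, a maternal factor that protects against demethylation, fell by 5.37 ± 0.42 on the log2 scale, from 128 and 127 to 3.51 and 2.00 CPM. AA467197 (log2 fold change -4.65), Calcoco2 (-4.57), Sox2 (-4.28 ± 0.66) and Esrrb (-3.92) completed the 8. The Sox2 call was lost without S2 library A (adjusted p = 0.212) or library B (0.0992).

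By role, 12 of 17 core pluripotency genes were lower in S2 and none higher (median -1.90, or -1.09 with genes at 0 put at their bound, against 0.01 over all genes tested). Without S2 library A, 7 were lower. Tdgf1 stood at 10.5 and 48.0 CPM against 353 and 363, a log2 fold change of -3.85. Dppa4 and Dppa2, chromatin-binding partners, had 0 UMIs in the S2 cells against 58 and 24, and were at least 8.78-fold and 3.63-fold lower. Dppa2 was not called without S2 library A (adjusted p = 0.112). Dnmt3l, a cofactor of de novo methylation, had 0 against 13, at least 1.97-fold lower, and its call was lost without S2 library A or B (adjusted p = 0.291 and 0.091). Sall4 and Epcam were lower by smaller amounts, with log2 fold changes of -1.09 and -0.60, and neither was called without S2 library A (adjusted p = 0.307 and 0.251) or with 2 or more Nanog UMIs required (0.0835 and 0.0657). L1td1 was at -0.52 (adjusted p = 0.0817 with 2 or more Nanog UMIs). After thinning, which left 6488 genes tested, Sall4 (adjusted p = 0.507), L1td1 (0.121), Zfp42 (0.125), Dppa2 (0.445), Dnmt3l (0.755), Tcl1 (0.444), Etv4 (0.15), Spred1 (0.151), Gadd45a (0.325), Cdkn1a (0.318) and Pcx (0.43) were not called. Utf1 (log2 fold change -0.23, adjusted p = 0.7) was not called.

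The naive-state list had 15 of 19 genes lower in S2 and none higher (median -2.64, or -2.49 with bounds). Zfp42, a zinc-finger factor also known as Rex1, had 4 UMIs against 88 (log2 fold change -3.27 ± 0.50). Tcl1, an activator of AKT, and Ooep had 0 UMIs against 35 and 37, at least 5.30-fold and 5.60-fold lower. Tcl1 was at an adjusted p of 0.0508 without S2 library A. Klf4 was at -3.02 on the log2 scale, with 6 UMIs against 110. Tdh was lower by less, at 235 and 208 against 489 and 434 CPM (log2 fold change -1.03). Tet1 was at -1.78.

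Of 30 germline and methylation-sensitive genes, 10 could be tested and 4 were lower in S2 (median -3.41, or -1.62 with bounds), against 2 when S2 library A or A2S library A was left out. Among the 4, Tex19.1, Piwil2 and Rhox6 had 0 UMIs in S2. Tex19.1 had 70 in A2S, Piwil2, which acts in piRNA silencing, had 39, and Rhox6, a homeobox gene, had 34. They were at least 10.6-fold, 5.90-fold and 5.15-fold lower. The Rhox6 call did not stand without S2 library A (adjusted p = 0.139) or with DESeq2 (0.0633). Of the list, 25 genes had no UMI in S2 Nanog-positive cells and 6 had none in A2S; the sums behind these zeros are 1354160 UMIs in S2 and 2982356 in A2S. The promoter of Tex19.1 printed above is CG-rich beside that of Nanog, and methylation was not measured.

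Other lists moved the other way or little. On the p53 and senescence list 9 of 22 were higher in S2 and none lower (median 0.44). Cdkn1a was at 736 and 584 against 437 and 393 CPM (log2 fold change 0.70), and Gadd45a, a stress-induced growth arrest gene, at 84.7 ± 1.0 against 41.3 ± 11.4 CPM (SD, n = 2 libraries; log2 fold change 1.04). The count ran from 3 to 10 over the other settings; it was 3 without S2 library A and 5 without A2S library B. Of 14 ERK targets, 5 were higher and none lower (median 0.70, or 0.50 with bounds). The number higher was 3 when S2 library A or A2S library B was left out, and 1 of 12 tested after thinning. Etv4, a transcription factor, had 25 UMIs against 1, a ratio of 55.1 (counting interval 9.01 to 2261), and Spred1, a feedback inhibitor, was at 71.3 ± 1.8 against 33.3 ± 4.8 CPM (log2 fold change 1.11). Of 24 fibroblast matrix genes, 5 were higher and none lower (median 0.60), with 3 higher without A2S library A and 2 with DESeq2. After thinning, 1 of 10 tested was higher and 1 lower. With 2 or more Nanog UMIs required, 3 of 18 were higher and 1 lower. With the compared groups alone, 5 of 18 were higher and 1 lower. Col6a1 was at 38.5 ± 3.5 against 9.8 ± 3.8 CPM. Summed over the list, fibroblast matrix RNA was 1708 and 1901 CPM in S2, 1390 and 1485 in A2S, and 6669 and 5469 in S2 cells without Nanog.

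Epithelial genes were divided, with 6 of 24 lower and 1 higher, and 2 lower without S2 library A. Elf3 was at 40.6 ± 7.7 against 124 ± 39.3 CPM and Krt19, a keratin, at 74.8 ± 6.8 against 30.6 ± 12.8 CPM. Cdh1 was not called. In the S phase list 7 of 30 were lower and none higher, and between 1 (without S2 library A) and 5 were lower with a library left out. In G2/M 5 were higher and 1 lower. Glycolysis and hypoxia genes were 6 lower and 1 higher of 22, led by Ndrg1, a hypoxia-induced gene, with 7 UMIs against 113; 2 were lower without S2 library A and 3 without A2S library A. Of 24 genes on the list of jumonji genes and other 2-oxoglutarate enzymes, 3 were higher and 3 lower (median -0.12). Kdm2a, Kdm6b and Kdm5c were higher, and Egln3, Jarid2 and Kdm3a lower. Jarid2 was at -0.76 on the log2 scale. Of 10 DNA methylation genes 2 were higher and 2 lower, and of the two-cell-like list 2 of 3 were lower, Dppa2 and Dppa4.

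The genes most raised in S2 cells relative to A2S, at 50 CPM or more, were Eif4a1 (log2 fold change 4.18) and Acp1 (3.03), which set the A2S libraries apart as described. Next came Sox11, a neural and progenitor transcription factor, at 176 and 220 against 40.9 and 35.7 CPM (2.35). Hspa8, a constitutive chaperone, was at 741 and 658 against 186 and 166 CPM (2.01). In AS it was at 713 and 701, so the A2S libraries were low and S2 was near AS. Zdbf2 (2.07), Dpysl5 (1.95), Pcx (1.90) and Bin1 (1.81) completed the 8; the Zdbf2 call was lost when any of the 4 libraries was left out (adjusted p from 0.0712 to 0.0992).

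The cells without Nanog also differed between the cultures, and the comparison was made to see which differences were seen there too. Of 11342 genes tested by edgeR's quasi-likelihood test, 683 were higher in S2 (6.02%) and 785 lower (6.92%). The call count was 681 without S2 library A. Sox11 (1.48), Hspa8 (1.26), Pcx (1.35), Dpysl5 (3.47) and Cdkn1a (0.53) were called higher in S2 there as well. Epcam (-0.71), Sall4 (-1.19) and L1td1 (-0.89) were lower in those cells too, and Tdgf1 was at 1.80 and 1.04 CPM against 37.0 and 52.0. Core pluripotency genes were 5 of 11 lower, and naive-state genes 5 of 13.

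Whether the Nanog-linked difference itself depended on the culture was tested by an interaction in the same edgeR quasi-likelihood model. Of 11099 genes, 35 had a larger value in S2 (0.315%) and 44 a larger value in A2S (0.396%). DESeq2 called 8, and without S2 library A 35 were called. Called were 1 of 16 tested core pluripotency genes, 2 of 19 naive-state genes and 0 of 5 germline and methylation-sensitive genes. Those called had a larger value in A2S. The list medians were -0.175, -1.52 and -1.495, against -0.008 over all genes tested. For the other genes of these lists, lower levels in S2 were not shown to be particular to the Nanog-positive cells. Epcam and Sall4 were not called, with differences of 0.08 and 0.13 on the log2 scale, so their rise with Nanog was not shown to differ between the cultures. Mylpf was 28.9 and 15.3 times higher with Nanog in A2S and showed no rise in S2, where it had 3.51 and 0 CPM with Nanog and 2.70 and 3.11 without. Tdh was 2.73 and 2.61 times higher with Nanog in S2 and 8.63 and 6.83 times in A2S (interaction -1.56). Pooled over libraries, Tdh was at 156, 257 and 247 CPM in S2 cells with 1, 2 to 4 and 5 or more Nanog UMIs. In A2S cells it was at 147.5, 289.7 and 605 CPM. The S2 libraries differed here, with Tdh at 198, 281 and 177 CPM in A and at 97.0, 209 and 355 CPM in B. Cells with 5 or more made up 123 of 238 in A2S and 19 of 106 in S2, so the interaction mixes Nanog level with culture. The part of the Nanog level in these differences was not tested. Fgf4, a growth factor of pluripotent cells, was 2.89 and 4.92 times higher in S2 and 16.1 and 15.0 times in A2S (interaction -2.10), a call lost without S2 library A (adjusted p = 0.21). Peg10, an imprinted retrotransposon-derived gene, was 2.35 and 1.46 times higher with Nanog in S2, while in A2S its Nanog-positive level was 0.400 and 0.476 of the other.

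**Figure D4:**
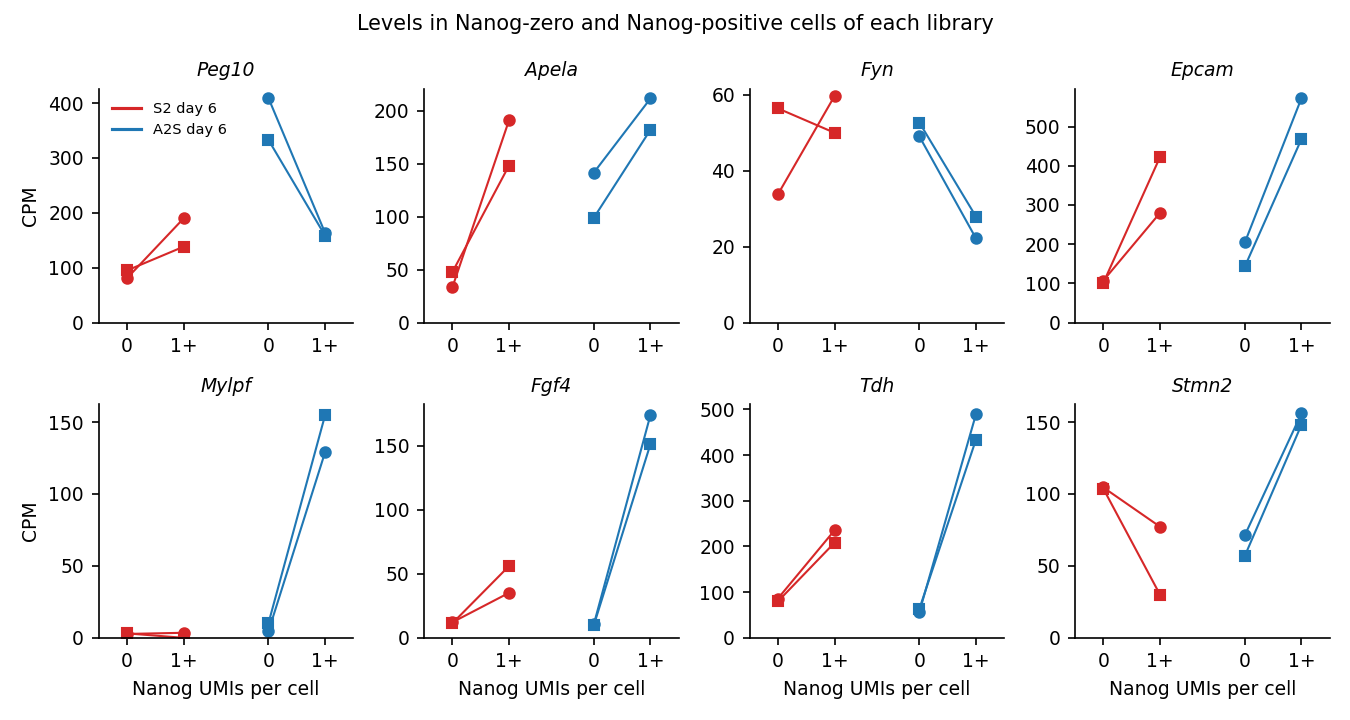
CPM (vertical axes, linear from 0) in cells with 0 Nanog UMIs and with 1 or more, joined for each library of S2 day 6 (red) and A2S day 6 (blue), with circles for library A and squares for B, in 7 genes whose difference differed between the cultures and in Epcam. Mylpf, Fgf4 and Tdh climb more steeply in A2S, Peg10 is higher with Nanog in S2 and lower in A2S, and Epcam is higher with Nanog in all 4 libraries.

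Cell by cell, the late genes were sparse. A UMI of any of Pou5f1, Sox2, Zfp42, Esrrb and Dppa5a, a set chosen after its values were seen, occurred in 13 of 106 S2 Nanog-positive cells (12.3%) and 4 of 333 others. In A2S it occurred in 138 of 238 Nanog-positive cells (58.0%) and in 29 of 246 cells without Nanog (11.8%). The share was thus lower in S2 than in A2S in both classes. Among Nanog-positive cells of other groups it was 7 of 50 in AS (14.0%), 2 of 20 in A2 and 259 of 259 in ESCs. After thinning to 3000 UMIs the shares in Nanog-positive cells were 4 of 103 (3.88%) in S2 and 96 of 230 (41.7%) in A2S. In cells without Nanog they were 0 of 312 and 10 of 209 (4.78%). At least 2 of the 5 genes were present in 1 S2 cell and 92 A2S cells with Nanog, and in 0 and 6 without. Over cells with 1, 2 to 4 and 5 or more Nanog UMIs, the share with a late gene was 11.4%, 9.62% and 21.1% in S2 and 28.3%, 46.4% and 75.6% in A2S. The last of these rest on 19 S2 cells (exact interval 6.05% to 45.6%) and 123 A2S cells (67.0% to 82.9%). These intervals treat the cells of both libraries as one sample and cover counting error only, and no test was made on this set.

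**Figure D5:**
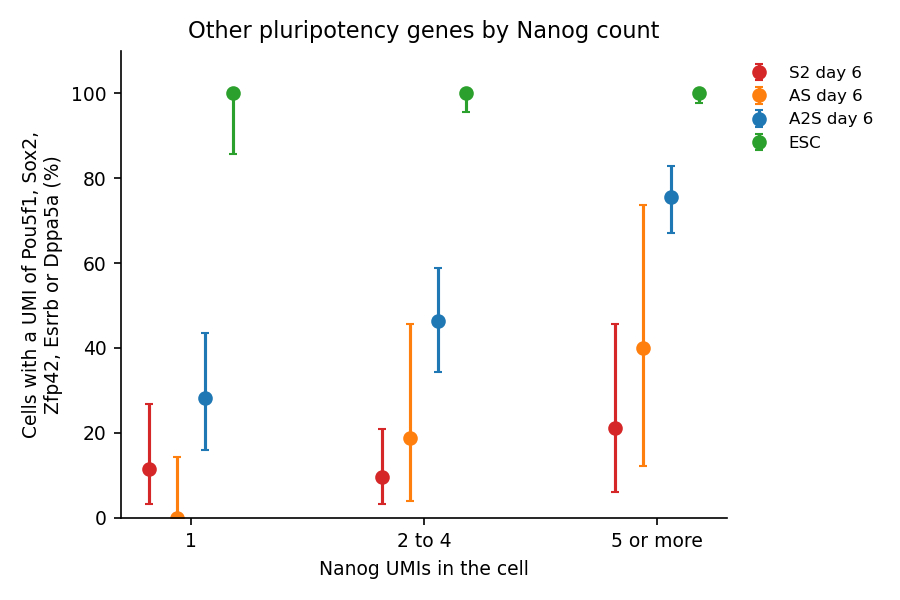
Percent of Nanog-positive cells with a UMI of Pou5f1, Sox2, Zfp42, Esrrb or Dppa5a (vertical axis) against the number of Nanog UMIs in the cell, for S2, AS and A2S at day 6 and ESCs, with exact 95% binomial intervals over the cells of both libraries, which cover counting error only. At 5 or more Nanog UMIs the share is 21.1% in S2 and 75.6% in A2S.

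The Nanog level itself, which chose the cells and is given as a description, was 219 and 296 CPM in S2, 523 and 579 in A2S, 156 and 219 in AS, and 471 and 409 in ESCs. The AS cells, which had ascorbic acid and no 2i, help to place S2. Tdgf1 was at 299 and 224 CPM in AS, Utf1 at 121 and 94.2, and Esrrb at 22.6 and 30.7, each above both S2 libraries. Dppa5a had 0 UMIs in AS as in S2, and Tex19.1 likewise. Tdh was higher in S2 (235 and 208 CPM) than in AS (153 and 131), and Cdh1 as well (382 and 304 against 236 and 193). These levels were not tested.

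Against ESCs the distance was far larger. Of 10324 genes, 2399 were higher in S2 Nanog-positive cells (23.2%) and 2250 lower (21.8%) by edgeR's quasi-likelihood test, with 3073 in all without S2 library A and 1698 after thinning. Core pluripotency genes were lower in 16 of 17 tests (median -4.20) and naive-state genes in 18 of 19 (median -3.82). Dppa5a was at least 280-fold lower, Dnmt3l at least 111-fold, Dppa4 at least 109-fold and Dppa2 at least 67.8-fold, all at 0 UMIs in S2, as were Fosb, Tex19.1, Triml2 and Rbmxl2. Sall4 was at 38.6 and 94.1 against 397 and 384 CPM (log2 fold change -2.68). Epcam, at 280 and 422 against 342 and 382 CPM, was not called (log2 fold change -0.07 ± 0.13, adjusted p = 0.71).

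Higher than in ESCs were Aldh1a1, a retinaldehyde dehydrogenase, with 138 UMIs against 0 (at least 149-fold), Avil (94 against 0, at least 102-fold) and Ano1, a chloride channel (156 against 1). Cd44 was at 204 and 164 against 2.51 and 0.832 CPM (6.80), and Ccnd2, a cyclin of G1, at 829 ± 165 against 10.6 ± 0.8 CPM (6.30). Col1a2 (6.08) and Efnb1 (6.06) followed. Fibroblast matrix genes were higher in 17 of 24 tests and lower in none (median 3.80, or 3.43 with bounds), p53 and senescence genes higher in 15 of 22 (median 1.35), and respiratory chain genes in 30 of 39 (median 0.65). Xist, the RNA of the inactive X chromosome, was at 289 ± 26.7 CPM in S2 and 0.3 ± 0.4 in ESCs. Of 14 ERK targets tested, 10 were lower in S2 and 4 higher, and of 16 immediate-early and stress genes 10 were lower and 4 higher. The labels give no doxycycline, SGC0946 or 2i for the ESCs. The stage of the cells, their origin and their culture therefore cannot be told apart in this comparison.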

How the data were processed

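The single-cell 3' RNA libraries were made on a droplet system, 2 per group. The authors deposited raw UMI counts per cell and gene, and a list of feeder cells, whose entries are barcodes and not measurements. The submitters' processing notes name STAR, bcl2fastq 2.19 and the build mm10, without the step each served. Per the file names, only barcodes past a knee filter were deposited. The tables hold 24421 genes; no column of another sample was used.

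From these counts, cells off the feeder list with 1000 or more UMIs were kept. The members and the 26 gene lists were chosen with earlier results of these data known, so no list is independent evidence. UMIs were summed per library and class, with 398132 to 2404280 UMIs in the Nanog-positive sums of the fits, and tested with edgeR 4.0.16 (TMM, filterByExpr, robust quasi-likelihood, Nanog removed before adjustment) in R 4.3.3, with DESeq2 1.42.0 as an alternative. Classes of S2, A2S and AS shared a fit with the library as a block; A2, with 8 and 12 Nanog-positive cells, was in the fit of cells without Nanog only. Summed counts of the S2 libraries differed beyond sampling noise (chi-square per degree of freedom 1.58 with Nanog and 2.21 without). The library, and not the cell, was therefore the unit of the tests. This excess does not tell whether the libraries were separate cultures.

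Named genes are the 8 called genes with the largest fold change each way whose higher group reached 50 CPM and whose libraries did not overlap, 5 each way for the interaction, a panel of 25 genes, and up to 3 called genes each way per list. Cd44 within S2 and the set of 5 late genes lie outside this rule and were chosen after their values were seen. Bounds against 0 use 3 UMIs over the group. Fits were tested on simulated counts. Doublets were marked by Scrublet (scanpy 1.11.5) and kept. Alternatives were other scaling, no count filter, DESeq2, 2 or more Nanog UMIs, cells of 5000 UMIs or more, thinning to 3000 UMIs, the compared groups alone, the block, and each library left out; leaving out doublets was chosen after seeing the data.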

Additional observations from a re-analysis of the deposited data

Results flagged for a closer look

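The size of the Nanog-linked difference differed between S2 and A2S at day 6 for 79 of 11099 genes by edgeR's quasi-likelihood test of the interaction, at an adjusted p under 0.05. Values below are the S2 log2 difference between cells with and without Nanog minus the A2S one. Peg10 was at 2.10, Ccser2 at 1.58, Srxn1 at 1.56, Fyn at 1.36 and Apela at 1.36. Several of these calls were lost under alternatives. Without called doublets the adjusted p of Peg10 was 0.0669. Without S2 library A it was 0.622 for Ccser2, 0.261 for Srxn1, 0.691 for Fyn, 0.201 for Apela and 0.21 for Fgf4. Without A2S library A it was 0.524 for Ccser2, 0.509 for Srxn1 and 0.189 for Fyn. Mylpf was at -4.74, Stmn2 at -2.14, Fgf4 at -2.10, Nfatc2ip at -1.98, Tbc1d13 at -1.91, Tdh at -1.56 and Klf4 at -2.98. Without S2 library B the adjusted p was 0.0723 for Klf4, 0.122 for Nfatc2ip, and 0.0725 for both Tbc1d13 and Srxn1. Without A2S library B it was 0.12 for Klf4, 0.0828 for Nfatc2ip and 0.143 for Fyn, and with no library term 0.208 for Klf4. After thinning to 3000 UMIs 10 of the 12 genes were not called, with adjusted p from 0.0746 (Stmn2) to 0.895 (Mylpf), and Peg10 and Tdh were. Ccser2, Srxn1 and Fyn were low-abundance genes whose S2 libraries changed by 1.30 and 0.784, 1.20 and 1.20, and 1.77 and 0.886 times with Nanog, while both A2S libraries fell.

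In cells that the comparisons leave out, 34 of 99 feeder-listed barcodes of ESCs grown in A2S medium had a Nanog UMI (34.3%). In the feeder-listed barcodes of MEFs it was 0 of 23, and in all other groups 2 of 590 (0.339%). None of the 19 feeder-listed barcodes of S2 day 6 had one.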

How the results depend on the processing

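Direction was checked for 57 genes within S2, 52 for S2 against A2S, 23 for ESCs and 12 for the interaction. None of these reversed under the alternatives run. Among all genes called in the main fit and still tested after thinning, some reversed. Direction was kept by 1648 of 1667 within S2, 894 of 904 for S2 against A2S and 3293 of 3347 for ESCs. Counts of called genes moved most with the tool, the depth and the libraries. For S2 cells with against without Nanog (1814 called), DESeq2 called 543, thinning to 3000 UMIs 537, and leaving out a library of S2 left 879 to 979. For S2 against A2S Nanog-positive cells (1146), these were 362, 255 and 425 to 949, the fewest without S2 library A. For S2 against ESCs (4649) they were 3065, 1698 and 3073 to 4178, and for cells without Nanog (1468) 684, 352 and 681 to 1111. For the interaction (79), DESeq2 called 8, thinning left 24, the compared groups alone 33, no count filter 124, cells with 2 or more Nanog UMIs 166, and leaving out a library 35 to 108. Thinning also lowered the number of genes tested, and a left-out library the number of samples; other causes were not tested.

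With the replicate letter as a replicate block, 1097, 4548 and 1447 genes were called in the 3 comparisons between groups. Deviations of same-lettered libraries correlated from -0.067 to 0.039, so no expression shift shared by same-lettered libraries was seen. Whether a letter marks a shared origin is not given in the labels. With no replicate block, that is without the library term, the comparison within S2 called 1702 genes and the interaction 43. Cells with 2 or more Nanog UMIs do not apply to the comparison of cells without Nanog.

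For the genes checked, 547 of 618 values kept their call for cells with against without Nanog and 589 of 662 for S2 against A2S. For ESCs it was 299 of 299, and for the interaction 112 of 148. Settings that gave a gene no adjusted p are left out of these totals. With DESeq2, 3 of the 12 interaction genes kept the call, 1 lost it and the others had no adjusted p. Depth limits the genes at 0: 1354160 UMIs lie behind the S2 Nanog-positive cells, where 3 UMIs are 2.22 CPM.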
